A study of Rattus norvegicus with 20 samples.

Results

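White matter beneath an implanted cortical electrode array (region 1) was compared with the same site of the opposite hemisphere (region 2) within each animal. All libraries whose titles end in region 1 or region 2 were used, which gave 8 of the 20 libraries of the series, a pair from each of 4 animals. The animals were female Long-Evans rats of wild-type genotype, aged about 6 to 8 months and weighing 275 to 350 g. Every animal, controls included, received a hemicontusion at cervical level 4 with a displacement of 0.7 mm, and an array was placed 2 weeks later in the motor cortex opposite to the injury. Movement thresholds were measured in the implanted animals 1 week after that. The 2 stimulated animals then received current for 1 week, 5 hours a day at 10 Hz in cycles of 5 min on and 2 min off, at 80% of the movement threshold. The 2 control animals were connected without current. No group was free of injury or implant, so the opposite hemisphere is the only comparison for the array, and it too belongs to an injured animal. The side of the array is always the side opposite to the cord injury, so the implant and the side of the injury cannot be told apart here.

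A wire left in the brain is met by microglia, the resident phagocytes, and by macrophages from blood, which clear debris through lysosomes and handle the lipid that broken myelin releases. Astrocytes around the wire enlarge and make more Gfap and Vim, intermediate filament proteins, and fibroblast-like cells lay down collagen. Cholesterol for membranes and myelin is made within the brain, since lipoproteins of the blood do not readily cross into it.

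The tissue was labelled as white matter dissected free of cortex. Oligodendrocyte genes were abundant in it, with Mbp, which encodes myelin basic protein, at 697 to 1484 FPKM in region 1 and 385 to 692 FPKM in region 2. FPKM is a number of sequenced fragments scaled by transcript length and by the mapped fragments of the library. Genes of cortical neuron cell bodies were present as well. Slc17a7, the vesicular glutamate transporter of cortical neurons, stood at 225 to 329 FPKM in region 1 and 245 to 277 FPKM in region 2, against 0.318 to 11.8 FPKM in the 3 cord regions. Tbr1, a transcription factor of cortical glutamatergic neurons, stood at 10.7 to 18.7 FPKM and 12.8 to 17.2 FPKM. The libraries therefore held RNA of gray matter neurons besides that of white matter. These are bulk samples, in which fewer cells of a type and less RNA per cell cannot be told apart.

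The libraries of stimulated animal 2 stood apart from the other 3 pairs. Across the 15210 genes tested, the log2 difference between region 1 and region 2 correlated with r of 0.69 to 0.73 between any 2 of the other animals, and with r of 0.35 to 0.43 between stimulated animal 2 and each of them. These correlations are across genes, which are not independent replicates. The median log2 difference of all genes was 0.08 in control animal 1, 0.17 in control animal 2, 0.12 in stimulated animal 1 and -0.14 in stimulated animal 2. Counts of genes past the test are therefore given with and without that animal.

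In the 4 animals together, 1322 genes differed between the hemispheres by limma with the animal as a block (adjusted p under 0.05). Of these, 1039 were higher beneath the array, 6.83% of the genes tested, and 283 were lower, 1.86%. Without stimulated animal 2 the numbers were 2457 higher (16.2%) and 397 lower (2.61%). The direction of the calls depended on scaling. Calls for higher expression made up 78.6% of all calls in the values as deposited and 43.7% after quantile normalization, which called 1734 genes higher (11.4%) and 2232 lower (14.7%). Quantile normalization moved the median log2 difference of all genes from 0.06 to -0.05. Leaving out any of the other 3 animals left 0 to 2 genes past the threshold. A single gene tested over 4 pairs by an exact two-sided sign-flip permutation test cannot reach a p below 0.125, so adjusted p-values come from the fit across all genes.

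Genes of activated phagocytes gave the largest median difference of the lists examined in the 4 animals together. All 13 genes of this list were tested and all were higher beneath the array in 4 of 4 animals, beside 22.2% of all genes. Of the 13, 10 passed the test with all animals and 13 passed without stimulated animal 2, beside 6.83% and 16.2% of all genes called higher. The median log2 difference with all animals was 1.98, beside 0.06 for all genes. These counts are a description and not independent evidence. The list holds Lgals3 and Gpnmb, which the study singled out in these samples. It was also chosen, like the other lists, with earlier results of these data known. Spp1, which encodes the secreted protein osteopontin, was at 55.7 FPKM in region 1 and 3.58 FPKM in region 2 of control animal 1. It was at 19.1 and 1.01 FPKM in control animal 2, at 18.6 and 0.698 FPKM in stimulated animal 1, and at 593 and 79.6 FPKM in stimulated animal 2. Each animal was higher beneath the array, but the groups overlapped, since the opposite hemisphere of stimulated animal 2 was above region 1 of the other 3 animals. The log2 difference was 3.96 ± 0.30 (SE, n = 4, limma adjusted p = 0.0207), and 4.31 without stimulated animal 2 (adjusted p = 0.0217).

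Lgals3, Gpnmb and Cd44 were singled out by the study in these samples, so their direction is not independent evidence. Lgals3 encodes galectin-3, a lectin of phagocytes. Its level in regions 1 and 2 was 16.5 and 1.54 FPKM in control animal 1, 16.8 and 1.05 FPKM in control animal 2, 32.8 and 0.62 FPKM in stimulated animal 1, and 67.8 and 13.9 FPKM in stimulated animal 2. Every region 1 library was above every region 2 library, which was so for 4.4% of all genes, and the log2 difference was 3.86 ± 0.55 (SE, n = 4, limma adjusted p = 0.0286). Without stimulated animal 2 the log2 differences of Lgals3, Gpnmb and Cd44 were 4.38, 3.39 and 2.47 (limma adjusted p of 0.0283, 0.0385 and 0.0260). Gpnmb encodes a membrane glycoprotein of phagocytes loaded with lipid or debris. It was at 21.2 and 3.63 FPKM in control animal 1, 26.0 and 3.71 FPKM in control animal 2, 88.3 and 3.15 FPKM in stimulated animal 1, and 137 and 22.6 FPKM in stimulated animal 2. Both stimulated animals were above both controls in region 1, while in region 2 only stimulated animal 2 stood apart. The difference between the hemispheres was 3.19 ± 0.41 on the log2 scale (limma adjusted p = 0.0270), and its interaction with stimulation did not pass (adjusted p = 0.884). Cd44, the hyaluronan receptor, gave a log2 difference of 2.22 ± 0.28 (limma adjusted p = 0.0259), with 8.27, 8.27, 17.2 and 26.7 FPKM in region 1 and 1.72, 2.07, 1.93 and 9.72 FPKM in region 2.

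Several genes were near the floor of 0.1 FPKM on the opposite side, so their fitted difference depends on that floor. Mmp12, the macrophage elastase, was at 6.70, 3.36, 2.61 and 13.8 FPKM in region 1 of control animals 1 and 2 and stimulated animals 1 and 2. In region 2 it was at 0.1, 0.196, 0.1 and 0.12 FPKM. In the opposite hemisphere stimulated animal 2 was within the range of the others, unlike for Spp1, Lgals3, Gpnmb and Cd44. The log2 difference was 5.43 ± 0.48 (limma adjusted p = 0.0207). Fabp4, a fatty acid carrier of macrophages and fat cells, gave 4.92 ± 0.47 (limma adjusted p = 0.0217) and 2.72 to 20.4 FPKM in region 1 against 0.1 to 0.308 FPKM in region 2. Clec7a, the receptor dectin-1, stood at 2.30 to 19.8 FPKM beneath the array, and in region 2 at 0.1 to 0.13 FPKM in 3 animals and 4.63 FPKM in stimulated animal 2. The other genes of the largest differences were Fcrl2, Atf3, Slfn3, Lilrb4, Cd8a, Cd36 and Slamf9, with log2 differences between 3.30 and 4.99. Of the 26 genes named by the rule for this comparison, 25 also passed without stimulated animal 2, Kcnh4 being the exception (limma adjusted p = 0.0589). Cd36 takes up lipid and Cd8a encodes a chain of the T cell coreceptor. In region 1 of the 3 animals other than stimulated animal 2, Cd8a was at 1.01 to 2.82 FPKM. The T cell genes Cd3e and Cd3d were at 0.1 to 0.215 and 0.1 to 0.127 FPKM there. In region 1 of stimulated animal 2, Cd8a, Cd3e and Cd3d were at 14.9, 1.28 and 0.937 FPKM. Whether Cd8a came from T cells was not tested.

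**Figure D1:**
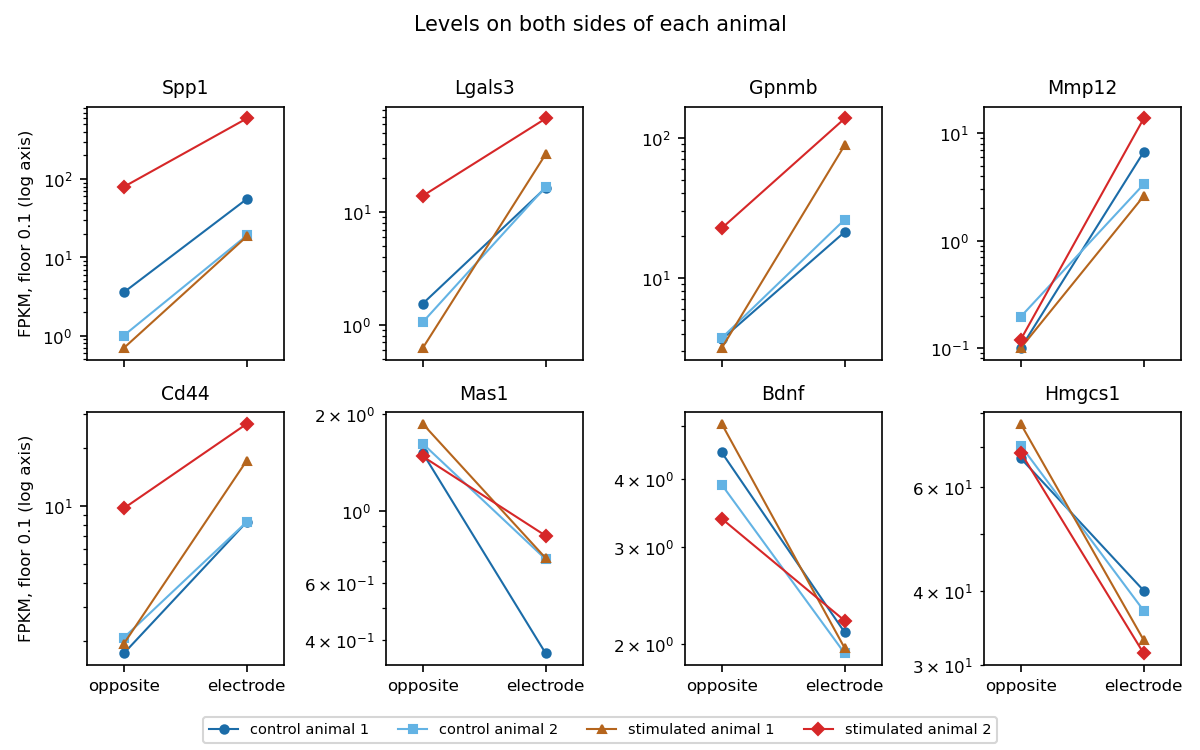
Level of 8 genes in FPKM (log axis, floor of 0.1) in the opposite hemisphere and beneath the electrodes, with a line for each of the 4 animals. Spp1, Lgals3, Gpnmb, Mmp12 and Cd44 were higher and Mas1, Bdnf and Hmgcs1 lower beneath the electrodes in all 4 animals, and stimulated animal 2 was the highest of the 4 on both sides for Spp1, Lgals3, Gpnmb and Cd44.

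Lysosomal and lipid genes were higher together with the phagocyte genes. Beside the counts below, 6.83% of all genes passed as higher with all animals. Without stimulated animal 2 that share rose to 16.2%. Of 12 cathepsin and lysosome genes, 7 passed as higher and 0 as lower, with a median log2 difference of 0.91, and 10 passed without stimulated animal 2. Ctsb, an abundant lysosomal protease, was at 257, 236, 373 and 517 FPKM in region 1 and at 153, 128, 146 and 317 FPKM in region 2, a log2 difference of 0.92 ± 0.14 (limma adjusted p = 0.0307). Of 13 genes of lipid clearance, 9 passed as higher, among them Abca1, the cholesterol efflux pump, with 1.83 ± 0.23, Plin2, which coats lipid droplets, with 1.79 ± 0.21, and Msr1, the scavenger receptor, with 2.95 ± 0.25. Without stimulated animal 2, 11 of the 13 passed. Of 5 genes of giant cells and osteoclasts, 4 passed as higher, and 5 without that animal. Ctsk, a collagen-degrading cathepsin, was at 16.2, 13.4, 18.6 and 54.9 FPKM in region 1 and 6.07, 5.14, 5.37 and 10.5 FPKM in region 2, so the groups did not overlap. Of 8 genes of iron and heme handling, 2 passed as higher, Hmox1, which degrades heme, with 2.21 ± 0.18 and Ftl1, a ferritin chain, with 1.16 ± 0.18, and 4 passed without stimulated animal 2.

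Of 9 genes of blood-derived and perivascular macrophages, 3 passed as higher, Ms4a7, Mrc1 and Lyz2, and 4 without stimulated animal 2. The summed level of the 9 genes was 55.4 to 95.2 FPKM in region 1 of the other 3 animals and 480 FPKM in stimulated animal 2, and in region 2 it was 19.0 to 26.6 FPKM and 208 FPKM. Genes of dividing cells gave 3 of 8 higher, Mki67, Top2a and Cdk1, and 4 without that animal. Neutrophil genes were near the floor in 3 animals, with a summed level of 1.52 to 3.75 FPKM in region 1, and reached 126 FPKM in region 1 and 12.6 FPKM in region 2 of stimulated animal 2. S100a9, a calcium-binding protein of neutrophils, was at 77.4 FPKM there. Of 6 neutrophil genes only Csf3r passed, of 5 genes of T and NK cells only Cd8a, and of 2 genes of B and plasma cells neither, with the same counts without that animal. Both B cell genes were at the floor in the other 3 animals. Beside these counts, 6.83% of all genes passed as higher with all animals and 16.2% without stimulated animal 2. Nothing is read from a single call in lists this short.

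Complement and interferon-induced genes had medians above 0 in all 4 animals and antigen presentation genes in 3, as the plot of list medians by animal shows. Of 15 complement and 13 interferon-induced genes, 9 and 8 were higher in 4 of 4 animals, beside 22.2% of all genes. In stimulated animal 2 the median log2 difference was 0.32 for complement, 0.18 for interferon-induced genes, -0.10 for class I and -1.29 for class II presentation. Of 15 complement genes tested, 6 passed as higher with all animals, 11 with all animals after quantile normalization and 15 without stimulated animal 2. The shares of all genes called higher in these fits were 6.83%, 11.4% and 16.2%, so the counts of any list are expected to differ between them. C1qa, a chain of the first complement component, was at 108 and 28.3 FPKM in regions 1 and 2 of control animal 1, 63.4 and 18.6 FPKM in control animal 2, and 137 and 29.6 FPKM in stimulated animal 1. In stimulated animal 2 it was at 233 and 266 FPKM, so both of its hemispheres were above every other library. The log2 difference was 1.43 ± 0.42 with all animals (limma adjusted p = 0.0995) and 1.97 without that animal (adjusted p = 0.0223). The 5 class II antigen presentation genes summed to 12.7 to 29.4 FPKM in region 1 and 4.08 to 6.80 FPKM in region 2 of the other 3 animals, and to 208 and 608 FPKM in stimulated animal 2. None of the 5 passed with all animals and 5 passed without it. Cd74, the invariant chain, was at 118 FPKM beneath the array and 384 FPKM opposite in that animal. Of 8 class I genes, 1 passed with all animals, 4 after quantile normalization and 7 without that animal. Of 8 genes of Toll-like receptors and adaptors, 3 passed and 8 without it. Chemokines and receptors gave 6 of 16 and 10 without it, and cytokines and receptors gave 6 of 13 and 8 without it.

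**Figure D2:**
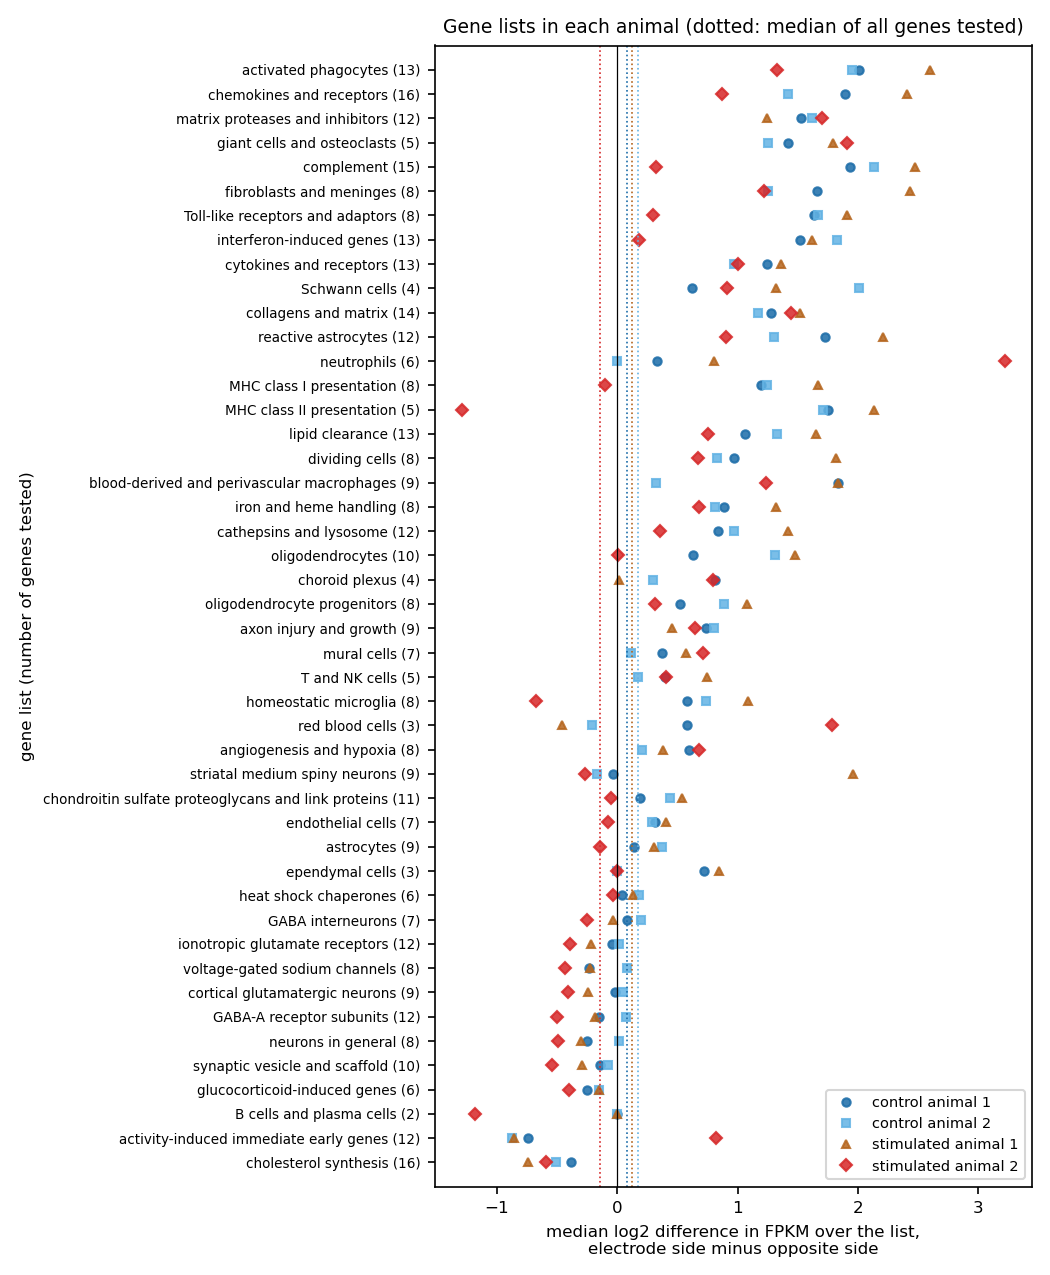
Median log2 difference in FPKM between region 1 and region 2 over each of 46 gene lists, with a point for each animal and the number of genes tested in parentheses. Dotted lines mark each animal's median over all genes, and stimulated animal 2 lay apart for class II presentation, homeostatic microglia, neutrophils and immediate early genes.

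Of 13 interferon-induced genes, 3 passed as higher with all animals, 8 after quantile normalization and 13 without stimulated animal 2, where the median log2 difference was 1.80. Among all genes, 6.83%, 11.4% and 16.2% were called higher in these fits. Irf7, a transcription factor of the interferon response, was at 4.51 and 1.21 FPKM, 3.97 and 0.506 FPKM, 2.85 and 0.67 FPKM, and 4.71 and 1.43 FPKM in regions 1 and 2 of control animals 1 and 2 and stimulated animals 1 and 2. The groups did not overlap, and the log2 difference was 2.17 ± 0.23 (limma adjusted p = 0.0232). Promoters were read from RefSeq, build GRCr8, as 250 bases before each start site and the bases up to a length of 300. The core of interferon response elements, a pair of TTTC separated by 2 bases of any kind, was sought on both strands. It was in 6 of the 8 promoters matched for this list (75%) and in 3.92% of the 33469 promoters of the table. The 3 genes with a match and the largest difference without stimulated animal 2 are shown, because they are the list members with both properties; capitals mark the match. A match is a description of the letters and not of binding.

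Irf7 (chr1:205799974-205800273, minus strand): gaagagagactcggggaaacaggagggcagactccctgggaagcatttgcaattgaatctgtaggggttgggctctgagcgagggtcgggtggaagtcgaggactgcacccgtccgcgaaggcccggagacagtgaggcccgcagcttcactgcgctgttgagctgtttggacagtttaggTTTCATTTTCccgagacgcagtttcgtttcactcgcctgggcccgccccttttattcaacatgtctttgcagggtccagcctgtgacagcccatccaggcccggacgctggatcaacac
Bst2 (chr16:18254918-18255217, minus strand): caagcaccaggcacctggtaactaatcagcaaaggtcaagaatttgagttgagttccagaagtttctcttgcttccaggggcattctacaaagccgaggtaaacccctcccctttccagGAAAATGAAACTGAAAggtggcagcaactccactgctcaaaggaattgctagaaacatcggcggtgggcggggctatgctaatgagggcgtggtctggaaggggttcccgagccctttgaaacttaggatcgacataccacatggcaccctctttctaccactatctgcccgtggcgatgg
Rsad2 (chr6:48788071-48788370, minus strand): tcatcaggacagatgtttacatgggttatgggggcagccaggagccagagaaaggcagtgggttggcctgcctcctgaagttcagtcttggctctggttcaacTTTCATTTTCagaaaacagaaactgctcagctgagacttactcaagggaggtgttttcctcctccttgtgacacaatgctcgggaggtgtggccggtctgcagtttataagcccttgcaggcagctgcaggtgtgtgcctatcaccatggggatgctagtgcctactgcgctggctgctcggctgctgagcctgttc

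Bst2, which tethers budding viruses to the cell, was at 2.89 and 0.552 FPKM in regions 1 and 2 of control animal 1 and at 5.07 and 4.32 FPKM in stimulated animal 2. Rsad2, an antiviral enzyme, was at 2.06 and 0.681 FPKM in control animal 1 and at 1.19 and 1.24 FPKM in stimulated animal 2. Without that animal the log2 differences of Bst2 and Rsad2 were 2.33 and 2.24. The PU.1 core GAGGAAGT was in 0 of 10 promoters of activated phagocyte genes and 2.42% of all, and the E-box TCACGTGA was in 0 of 10 and 0.777% of all.

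Homeostatic microglia genes went opposite ways. In the other 3 animals their median log2 difference was 0.58, 0.74 and 1.09, and in stimulated animal 2 it was -0.67. P2ry12, a purinergic receptor of resting microglia, was at 17.1, 16.3 and 18.8 FPKM in region 1 and 12.0, 10.2 and 10.5 FPKM in region 2 of the 3 animals, and at 14.6 and 25.5 FPKM in stimulated animal 2. None of 8 genes passed with all animals and 7 passed as higher without that animal, beside 6.83% and 16.2% of all genes. Of the 2457 genes called higher without stimulated animal 2, 68.6% were higher in region 1 of that animal too, beside 30.7% of all genes. In 91.1% of them its region 2 was above region 2 of the other 3 animals, beside 43.9% of all genes. These shares are a description, since the values of the other 3 animals chose the genes. Genes called lower without it were also lower in it for 92.4%, beside 68.4% of all genes.

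**Figure D3:**
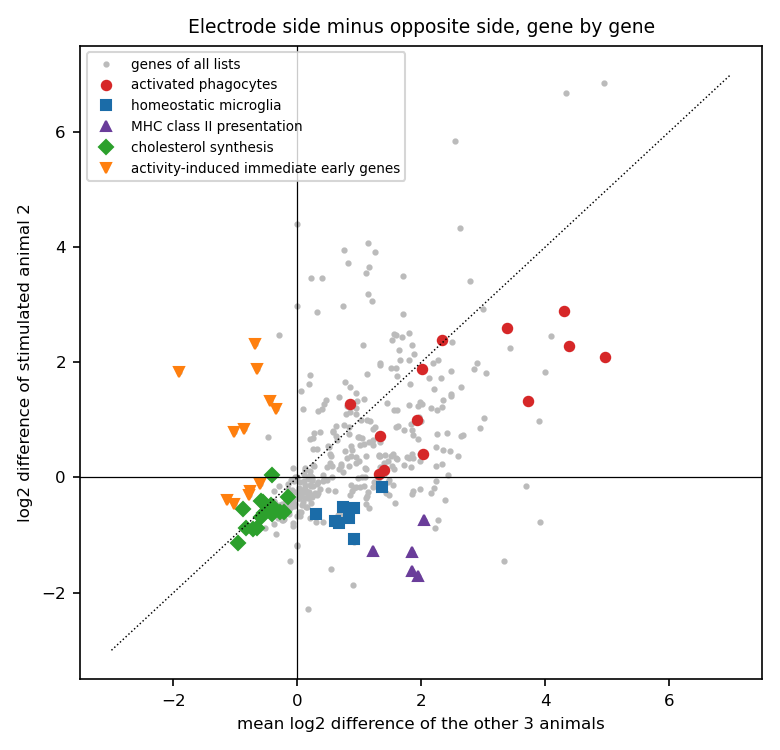
Log2 difference between region 1 and region 2 in stimulated animal 2 against the mean of the other 3 animals, with a point for each gene of the lists and a dotted line of equal values. Activated phagocyte genes were above 0 on both axes, class II and homeostatic microglia genes were above 0 on the horizontal and below 0 on the vertical axis, and cholesterol genes were near the line.

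Most genes of the reactive astrocyte, collagen and protease lists passed as higher beneath the array, beside 6.83% of all genes. Of 12 reactive astrocyte genes, 7 passed as higher and 0 as lower, with a median log2 difference of 1.33, while 1 of 9 general astrocyte genes passed, with a median of 0.15, and 3 without stimulated animal 2. Gfap was at 353, 410, 680 and 884 FPKM in region 1 and 91.5, 70.1, 70.6 and 678 FPKM in region 2. Stimulated animal 2 was high on both sides, and the log2 difference was 2.04 ± 0.48 (limma adjusted p = 0.0623), and 2.59 without that animal (adjusted p = 0.0268). Vim, which passed with all animals, gave 2.06 ± 0.30 (limma adjusted p = 0.0294). Of 14 collagen and matrix genes, 11 passed as higher. Col1a1, a fibrillar collagen chain, was at 12.8, 7.98, 10.8 and 38.9 FPKM in region 1 and 1.90, 1.27, 1.10 and 9.85 FPKM in region 2, with a log2 difference of 2.67 ± 0.21 (limma adjusted p = 0.0207). Of 12 matrix proteases and inhibitors, 8 passed as higher, and Mmp2, Mmp14 and Timp1 were among them with 2.21, 2.13 and 2.16. Without stimulated animal 2, 9 reactive astrocyte, 10 collagen and matrix, and 9 protease and inhibitor genes passed as higher. Of 8 genes of fibroblasts and meninges, 5 passed as higher and 6 without that animal, Col1a1 and Col3a1 counted in both lists. Of 11 genes of chondroitin sulfate proteoglycans and link proteins, 3 passed as higher, led by Vcan (versican) with 1.3 ± 0.15 and Ncan (neurocan) with 0.99 ± 0.06, and 4 without that animal. Of vascular genes, 2 of 7 endothelial, 1 of 7 mural and 1 of 8 angiogenesis genes passed as higher, beside 6.83% of all genes. Without that animal the counts were 3, 0 and 3, beside 16.2% of all genes, with 1 angiogenesis gene lower. Nothing is read from such small counts in lists this short.

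Myelin genes were higher beneath the array in 3 animals. The 10 oligodendrocyte genes summed to 1887 and 1161 FPKM in regions 1 and 2 of control animal 1, 2059 and 762 FPKM in control animal 2, 3184 and 1088 FPKM in stimulated animal 1, and 1662 and 1523 FPKM in stimulated animal 2. None passed with all animals and 6 passed as higher without stimulated animal 2, beside 6.83% and 16.2% of all genes. This count depended on the fit, since with all animals 6 passed after quantile normalization, 6 after upper-quartile scaling and 9 in the fit of all 20 libraries. Of 8 progenitor genes 5 passed as higher with and without that animal, among them Pdgfra, the receptor that marks these cells, with 0.51 ± 0.09 (limma adjusted p = 0.0359). The share of white and gray matter in each block was not measured, and its part in these results was not tested. Striatal neuron genes summed to 205 FPKM in region 1 of stimulated animal 1 and to 52.0 to 83.3 FPKM in the other 7 libraries.

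Cholesterol synthesis genes were lower beneath the array in every animal. Of 16 genes, 11 passed as lower and 0 as higher, 15 were lower in 4 of 4 animals (12.2% of all genes), and in 13 every region 1 library was below every region 2 library (3.16% of all genes). The median log2 difference was -0.53 with all animals and -0.54 without stimulated animal 2, where 8 passed. Among all genes, 1.86% passed as lower with all animals and 2.61% without that animal. Hmgcs1, an enzyme at the start of the pathway, was at 40.1 and 67.1 FPKM in regions 1 and 2 of control animal 1, 37.0 and 70.5 FPKM in control animal 2, 33.0 and 76.7 FPKM in stimulated animal 1, and 31.4 and 68.6 FPKM in stimulated animal 2. The groups did not overlap, and the log2 difference was -1.0 ± 0.10 (SE, n = 4, limma adjusted p = 0.0217). Fdft1, which makes squalene, gave -0.84 ± 0.09 (limma adjusted p = 0.0234), and Insig1, which holds the pathway's activator in place, gave -0.79 ± 0.10 (adjusted p = 0.0256). Lss, an enzyme of sterol closure, was the exception, at 9.95 and 9.60 FPKM in stimulated animal 2. In the same blocks Abca1, which exports cholesterol, was higher.

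Immediate early genes, which neurons transcribe within minutes of activity, had a median below 0 in 3 animals and above 0 in stimulated animal 2. Of the 12 genes, 5 were lower in all 4 animals (Egr1, Egr3, Arc, Nr4a1 and Nr4a3), beside 12.2% of all genes. Of 12 genes, 3 passed as lower with all animals (Arc, Nr4a1 and Nr4a3) and 9 without stimulated animal 2. Among all genes the shares called lower in these fits were 1.86% and 2.61%. The median log2 difference was -0.74, -0.88 and -0.86 in the 3 animals and 0.82 in stimulated animal 2. Arc, which acts at synapses, was at 34.4 and 67.4 FPKM, 16.6 and 32.9 FPKM, 31.5 and 67.9 FPKM, and 43.7 and 60.4 FPKM in the 4 animals, with a log2 difference of -0.88 ± 0.12 (limma adjusted p = 0.0277). Fos was at 5.86 and 12.4 FPKM in control animal 1 and at 59.3 and 16.1 FPKM in stimulated animal 2. Bdnf, a neurotrophin, was at 2.1, 1.92, 1.96 and 2.2 FPKM in region 1 and 4.47, 3.90, 5.04 and 3.38 FPKM in region 2, without overlap. Its log2 difference was -1.02 ± 0.14 (limma adjusted p = 0.0284).

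**Figure D4:**
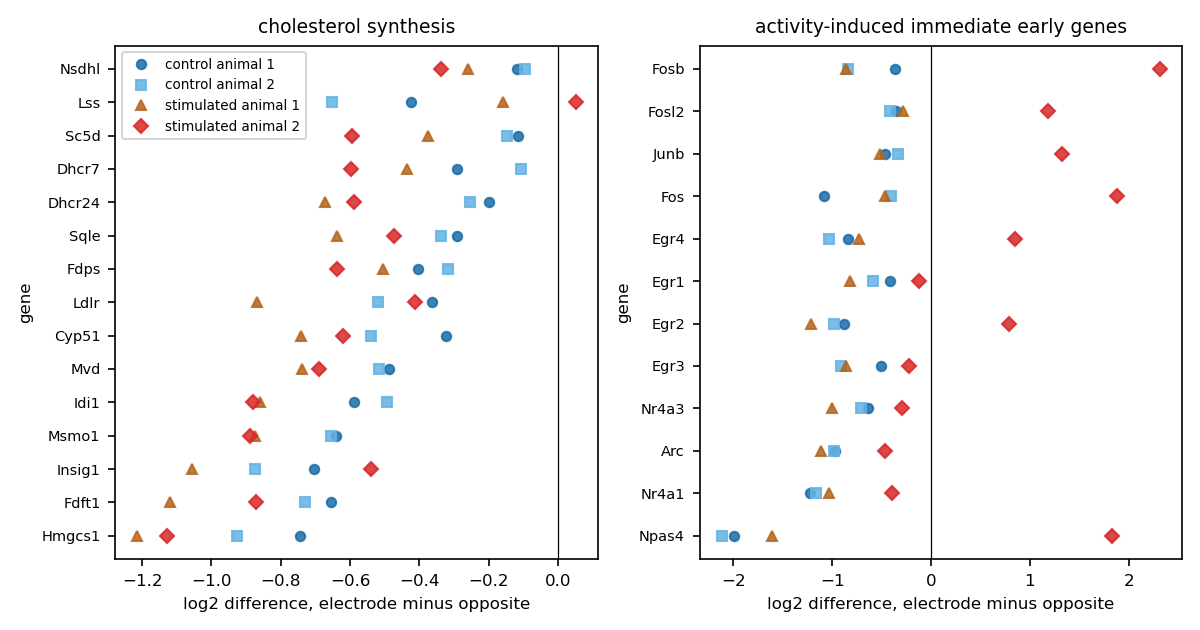
Log2 difference between region 1 and region 2 for 15 genes of cholesterol synthesis (left) and 12 immediate early genes (right), with a point for each animal. Of the cholesterol genes shown, 14 of 15 were below 0 in all 4 animals, and 7 of the 12 immediate early genes were above 0 in stimulated animal 2 and below 0 in the others.

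The other 11 genes chosen for the largest decreases, beside Bdnf, were Tnnc2, Mas1, Cml3, Kcnh4, Tcap, Sertm1, Lamp5, Slc17a6, Hmgcs1, Camk1g and Nr4a1, with log2 differences from -1.65 to -0.95. Lamp5, a protein of cortical neurons, was at 35.0, 28.2, 24 and 22.0 FPKM in region 1 and 67.4, 53.2, 50.1 and 51 FPKM in region 2, a difference of -1.03 ± 0.07 (limma adjusted p = 0.0207). Mas1, a receptor of the angiotensin system, gave -1.36 ± 0.22 (limma adjusted p = 0.0320). The number of neuron genes past the test depended on scaling. In the values as deposited, of 9 cortical glutamatergic neuron genes, 7 interneuron genes and 12 ionotropic glutamate receptor genes none passed, and 2 of 10 synaptic genes, 1 of 12 GABA-A receptor genes (Gabrd), 1 of 8 sodium channel genes (Scn3b) and 1 of 8 general neuron genes (Rbfox3) passed as lower. Without stimulated animal 2 these counts were the same, except that 1 interneuron gene passed as higher. After quantile normalization 3 cortical, 2 interneuron, 6 glutamate receptor and 6 synaptic genes passed as lower. So did 7 GABA-A receptor, 4 sodium channel and 4 general neuron genes, and upper-quartile scaling gave the same counts. Calls for lower expression rose among all genes too, from 1.86% as deposited to 14.7% after quantile normalization. Upper-quartile scaling called 1814 of the 15210 genes lower. Of 9 axon injury and growth genes 5 passed as higher, and without stimulated animal 2 there were 6 higher and 1 lower. Atf3, the transcription factor that injured neurons switch on, was at 1.42, 1.46, 3.32 and 6.68 FPKM in region 1 and 0.139, 0.1, 0.1 and 1.22 FPKM in region 2, and Gal, the neuropeptide galanin, gave 3.14 ± 0.29 (limma adjusted p = 0.0216). The remaining lists gave at most a single call in each direction. Lists this short cannot be set against the 6.83% higher and 1.86% lower among all genes, so nothing is read from them. Of these lists, 1 of 6 heat shock genes (Hspb1) passed as higher, 1 of 6 glucocorticoid-induced genes passed in each direction, 1 of 3 ependymal genes (Rarres2) and 1 of 4 Schwann cell genes (Pmp2) passed as higher, and none of 4 choroid plexus, 9 striatal or 3 red blood cell genes passed.

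No gene passed the test for a different hemisphere difference in stimulated and control animals (0.0% of the genes tested, limma interaction), and 575 had an unadjusted p under 0.05. With 2 animals in each group, a count of 0 does not show that the groups were alike. The smallest p-values belonged to Mmp8, Chd9 and Ucma. Mmp8, a collagenase of neutrophils, was at 1.01 and 1.37 FPKM in region 1 of the stimulated animals and at 0.1 FPKM in both controls, with an unadjusted limma p of 9.75e-05. Chd9, a chromatin remodeler, was at 17.2 and 15.3 FPKM in region 1 of the stimulated animals and 75.9 and 87.7 FPKM in the controls, while region 2 ranged from 80.6 to 124 FPKM. The adjusted p of each was 0.884.

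The same animals carry a lesion in the cord, where region 4 is its epicenter and region 3 the cord rostral to it. The difference between regions 1 and 2 was compared with that between regions 4 and 3 in the 16 libraries. It differed for 184 genes, of which 142 were more positive at the array (0.934%) and 42 more negative (0.276%), and without stimulated animal 2 it differed for 1870. The activated phagocyte list gave a median log2 difference of 1.98 at the array and 1.70 at the lesion. Complement gave 1.61 and 1.52, and cholesterol synthesis gave -0.53 and -0.41. No gene of these 3 lists passed the test of the difference. Since only 184 of the 15210 genes tested passed it, this does not show that the lists behaved alike at both sites. Gal gave 3.14 at the array and -0.15 at the lesion, a difference that passed (limma adjusted p = 0.00737). Slc6a5, the neuronal glycine transporter, was at 0.576 to 4.10 FPKM in region 1 and 0.169 to 0.252 FPKM in region 2 against 26.1 to 40.0 FPKM in the cord. Hoxc8, a positional gene of the cord, was at the floor in all but 1 of the 8 white matter libraries, so its call comes from the cord.

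**Figure D5:**
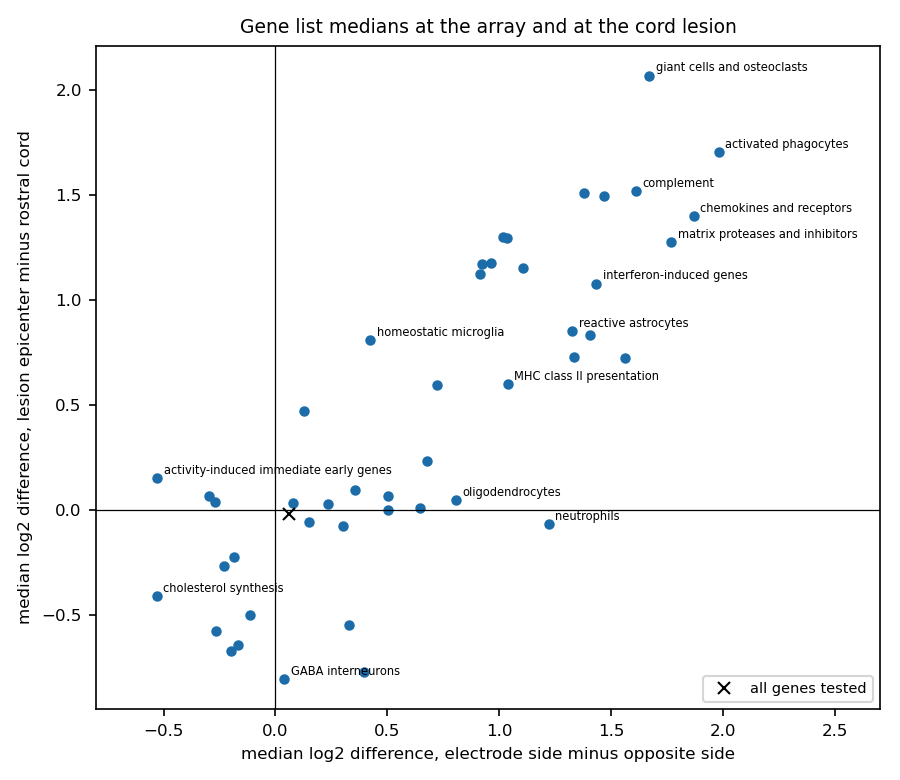
Median log2 difference of each gene list between region 1 and region 2 (horizontal) and between the lesion epicenter and rostral cord (vertical), means over 4 animals, with a cross for all genes tested. Activated phagocytes lay at 1.98 and 1.70, cholesterol synthesis at -0.53 and -0.41, and neutrophils at 1.22 and -0.07.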

How the data were processed

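RNA-seq of 8 libraries (regions 1 and 2 of 4 rats), with the 12 cord libraries used as context, was analysed from a table of FPKM values. Libraries followed a stranded TruSeq total RNA protocol, per the labels. The authors aligned reads to Rnor6 with TopHat2 2.1.0 and estimated FPKM values per gene with Cufflinks 2.2.1, and values under 0.1 are raised to 0.1 in the deposited FPKM table. FPKM carries no read numbers, so the depth behind a value is unknown here and precision comes from the spread between animals. The sources used here do not give the annotation's version or the strand used in counting, so overlapping and antisense genes are uncertain. The table has 30443 entries and 0 columns without a sample.

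Values were log2-transformed with a floor of 0.1, and 15210 genes with at least 1 FPKM in any of the 20 libraries were kept. Limma 3.58.1 in R 4.3.3 (lmFit, eBayes with trend) was fitted with hemisphere and animal as terms, so that both libraries of an animal form a pair, an interaction with stimulation, and the contrast with regions 4 and 3. Benjamini-Hochberg adjustment ran over all genes tested, with a threshold of 0.05. The pairing comes from the titles, in which both libraries carry the animal's name. Members and lists were chosen with earlier results of these data known. Of 452 symbols in 46 lists (20 of cell types, 26 others), 433 matched an entry and 403 were tested, and 19 were not analysed here. Single values of some list members are not reported here. Named genes were Lgals3, Cd44 and Gpnmb, the 12 largest increases and 12 largest decreases with the same direction in 4 animals and a mean of at least 1 FPKM, and the list members. Of 1165 genes eligible, 94 had clone or LOC names and were not described. For a repeated symbol the entry of highest mean was used. The fits were tested on simulated data. Other steps used Python, numpy, pandas and matplotlib. The alternatives are given in the closing section.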

Additional observations from a re-analysis of the deposited data

Results flagged for a closer look

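In 13 of 78 tests on 26 genes, 1 animal lay apart from the other 3 by Dixon's criterion. Among values without ties, chance meets that criterion in about 1 of 20 groups. In 12 of the 13 tests the animal was stimulated animal 2. In region 2 (log2 FPKM) that animal was above the others for Cd44 at 3.28, Gpnmb at 4.49, Fcrl2 at 4.41, Clec7a at 2.21, Atf3 at 0.28, Lilrb4 at -0.37, Cd8a at 2.07 and Cd36 at -2.68, and below them for Tnnc2 at 1.26. In region 1 it was above them for Cd36 at 3.17 and below them for Cml3 at 2.29, and its difference between the hemispheres for Cd36 was 5.85. Gpnmb gave a difference of 4.81 in stimulated animal 1, above 2.55 to 2.81 in the others. For Cd8a and Cd36 in region 2, the animals other than stimulated animal 2 were all at the floor of 0.1 FPKM. Any value above the floor is then flagged.

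Hemisphere differences went opposite ways in the control and the stimulated animals for Th, the enzyme that starts catecholamine synthesis, and for Ucma. The interaction was -0.59 for Th and -2.09 for Ucma on the log2 scale, and neither passed limma's test across all genes (adjusted p = 0.884 for each).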

How the results depend on the processing

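The number of genes that differed between the hemispheres was 1322 and depended on the processing. It was 3966 after quantile normalization, 3955 after upper-quartile scaling, 2088 with 1 FPKM in at least 4 libraries, 2342 with 1 FPKM in any of the 8 white matter libraries, 18 in the 2 stimulated animals alone, 0 in the 2 control animals alone and 2798 after quantile normalization without stimulated animal 2, which was chosen after seeing the data. Without the replicate block, which ignores the pairing within animals, it was 0, with 2313 at an unadjusted p under 0.05. Leaving out 1 animal gave 0 to 2854 genes, and 2854 came without stimulated animal 2; without control animal 1, control animal 2 and stimulated animal 1 it was 0, 0 and 2. For the interaction the count was 0, and 1 with the stricter filter. Leaving out 1 animal gave 0 to 113, the highest without stimulated animal 1. For the contrast with the lesion it was 184, and 290 after upper-quartile scaling. Leaving out 1 animal gave 0 to 1870, the highest without stimulated animal 2. The cause was not tested, except that fewer animals leave fewer degrees of freedom.

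Of 440 values of the 26 named genes under these alternatives, 0 reversed, 284 kept their call and 156 kept their direction but lost it, mostly where an animal or the block was left out. FPKM gives no depth, so low genes such as Mmp12 on the opposite side are limited by the floor of 0.1 FPKM.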
